A study of Mus musculus with 9 samples.

Results

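Gene expression in C2C12 cells was compared after 72 h with 10 nM calcitriol or with vehicle. C2C12 is an established line of mouse myoblasts, muscle precursors that can be made to fuse into myotubes by lowering the serum, and every culture here is of that 1 line. The series concerns myotubes, and the stage of the cultures when treatment began is not given in the sources used here. Calcitriol, 1,25(OH)2-vitamin D3, is the hormonal form of vitamin D. The comparison takes 6 of the 9 arrays of the series by their labels, 3 of the 10 nM group and 3 of the vehicle group, which the series' design text calls biological replicates. The other 3 arrays hold cells given 1 nM calcitriol for 72 h. They enter the comparison of the doses, and also the probe filter, the choice of each gene's probe and the spread behind each p-value. The labels name no added gene or deletion in any group.

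Calcitriol binds the vitamin D receptor, a nuclear receptor that pairs with a retinoid X receptor on DNA and recruits coactivators or corepressors. Its best known targets govern the breakdown of the hormone itself, calcium transport and bone matrix. Myoblasts and myotubes carry the receptor at low levels compared with gut, kidney and bone, and the hormone is known in this lineage for effects on proliferation, differentiation and mitochondrial genes.

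Each sample of total RNA was hybridised to its own 1-colour array of 39429 probes. Values are log2 signals relative to the array's 75th percentile, called relative signal below, and a difference of 1 is a 2-fold change. That percentile lay between 2826 and 3389 intensity units, with 0 saturated spots. The array of vehicle replicate 3 had 96.4% of its spots well above background, and the other 8 had 67.1% to 79.2%. That array had 6007 spots marked as non-uniform, against 8 to 56 elsewhere, so that 1708 genes had no value there, against 1 to 37. Its dim probes read high: the median excess over the other vehicle arrays was 1.91 in the dimmest of 10 bins of genes and -0.09 in the brightest. Correlations across genes were 0.9685 to 0.9946 between vehicle arrays and 0.9917 to 0.9938 between 10 nM arrays. All 46 measured sarcomere genes were well above background on every vehicle array, as were 27 of 28 myogenic regulators and fusion genes. That mark does not single out muscle. It was also held by 15 of 15 measured fibroblast and smooth muscle markers and 12 of 13 neuron and glia markers. Of all 21995 genes tested, 18441 held it on all 6 vehicle and 10 nM arrays. The number of arrays limits the precision, and in bulk RNA fewer cells of a type and less RNA per cell cannot be told apart.

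At 10 nM, 3393 of 21995 genes were higher than in vehicle (15.4%) and 3229 were lower (14.7%) at a Benjamini-Hochberg adjusted p under 0.05 in limma, a linear model fitted across all genes. All adjusted p-values below are from that method. Counts of called genes in a list are to be read beside these shares, and a share near them shows no more than all genes do. The changes downward were larger: 548 genes fell at least 4-fold and 239 rose at least 4-fold, and at 16-fold the counts were 127 and 60. The median difference over all genes was -0.11 and the median SE 0.13. Groups did not overlap in 9628 of the 21995 genes, and 6612 of these were called, so a lack of overlap alone was common. With vehicle replicate 3 left out, 3793 genes were higher (17.2%) and 3362 lower (15.3%), and 303 and 484 changed at least 4-fold. Of the 6622 genes called with all arrays 6021 were called again, 601 were not, and 0 were called with the opposite sign, while 1134 others came in. Fitted on the vehicle and 10 nM arrays alone, 4933 genes were called.

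**Figure D1:**
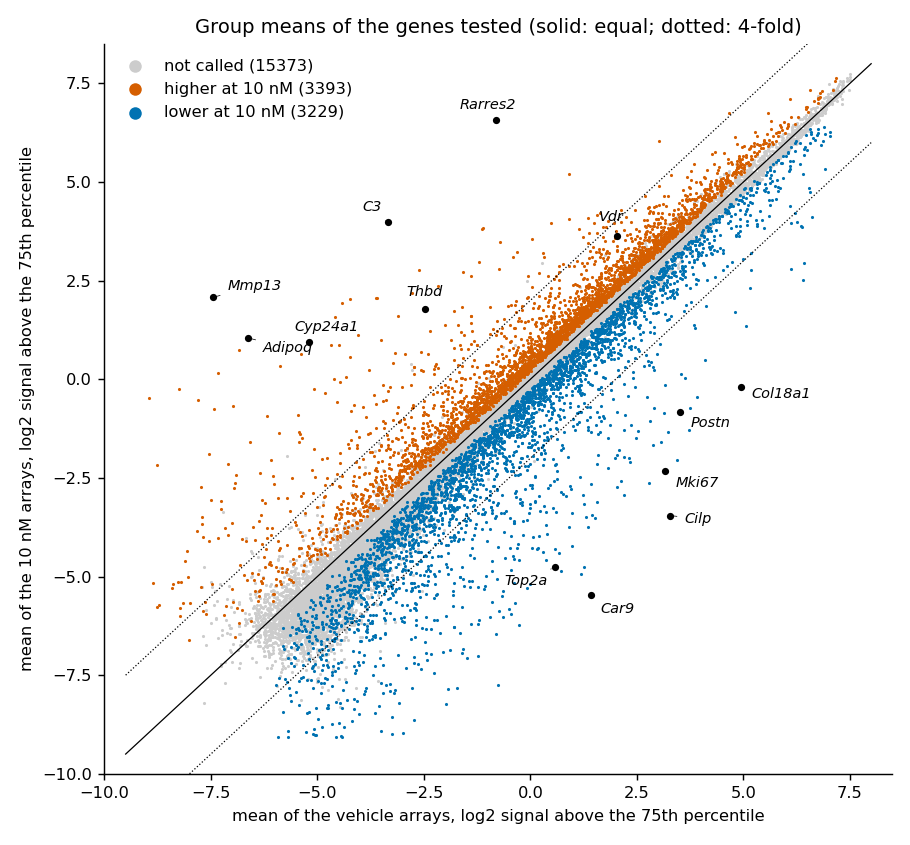
Mean relative signal (log2 units above the array 75th percentile) of each of 21995 genes in the 3 vehicle arrays (horizontal) and the 3 10 nM arrays (vertical). Orange points are the 3393 genes higher at 10 nM, blue the 3229 lower and grey those not called; the solid line is equality and the dotted lines 4-fold, and the named genes of the vitamin D response, acute phase, cell cycle and matrix lie outside them, except Vdr at 3.06-fold.

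The side of the call moved with signal level and with the array of vehicle replicate 3. Genes were ordered by mean level and cut into 10 equal bins. In bin 1, the dimmest, 2.05% were called higher and 11.7% lower, and without that array 6.05% and 10.9%. In bin 3 the shares were 4.45% and 13.9%, and 9.59% and 13.8% without it. In bin 9 29.5% were higher and 11.9% lower, and 27.6% and 14.7% without it. The median difference in bin 1 moved from -0.80 to -0.36. Low relative signals in the text below are therefore given array by array, or without that array where it stands apart.

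**Figure D2:**
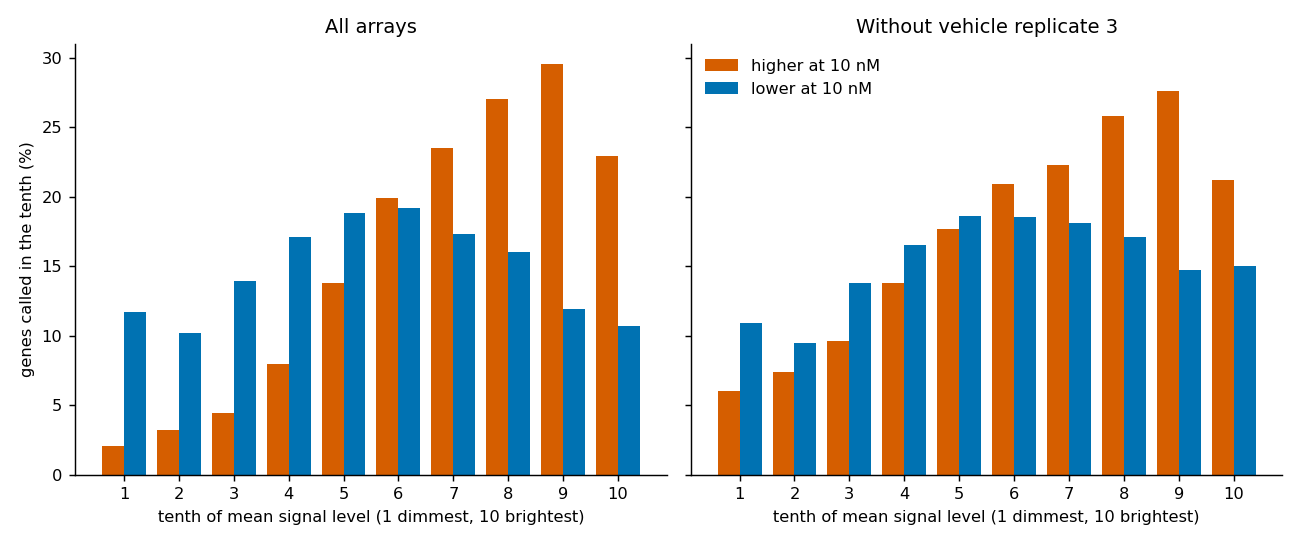
Share of genes (%) called higher (orange) or lower (blue) at 10 nM in each of 10 bins of mean signal level, from dimmest (1) to brightest (10), with all arrays on the left and without vehicle replicate 3 on the right. Leaving that array out raised the share called higher in bin 1 from 2.05% to 6.05%, and that of bin 10 changed from 22.9% to 21.2%.

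Scaling each array by its median instead of its 75th percentile moved the median of all genes from -0.11 to 0.40. The median of vehicle replicate 3 was 659.6 intensity units, against 215.6 to 315.4 on the other arrays. Under that scaling 2530 genes were called, 67.1% of them higher, against 51.2% in the main setting. With that scaling and without vehicle replicate 3, 5448 were called, 61.3% of them higher. Differences below are to be read against these medians. The 3 slides gave 5611 called genes with the slide as a block. Slide 1, with vehicle replicates 1 and 2 and 10 nM replicate 1, gave 2574 called genes, and slide 2, with vehicle replicate 3 and 10 nM replicate 2, gave 10019, 27.9% of them higher. Lone arrays were assumed to vary like the vehicle pair on slide 1 and like the 1 nM pair on slide 2.

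The enzyme that breaks calcitriol down, Cyp24a1, was among the genes with the largest rises. Its relative signal was -5.41, -4.65 and -5.51 on the vehicle arrays and 0.95, 0.92 and 0.95 at 10 nM. The groups were far apart and the 10 nM arrays nearly coincided. The rise was 70.2-fold (log2 6.13, SE 0.21, adjusted p = 7.37e-07). Its probe lies at chr2:170308865-170308924 in the mm9 build, on the minus strand.

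Vdr, the receptor itself, read 1.94, 2.08 and 2.06 in vehicle and 3.59, 3.65 and 3.68 at 10 nM. All 10 nM arrays exceeded all vehicle arrays, and the spread within each group was small beside the gap. It rose 3.06-fold (log2 1.61, SE 0.07, adjusted p = 1.98e-06), with its probe at chr15:97685136-97685195 (mm9). Of the list of the receptor, its partners and the enzymes of vitamin D metabolism, Vdr and Cyp24a1 included, 17 members were measured. Of these 6 were higher (35.3%) and 3 lower (17.6%), beside 15.4% and 14.7% of all genes, with a median difference of 0.34. The coactivator Ncoa2 rose 1.40-fold (log2 0.49, adjusted p = 0.00206) and the endocytic receptor Cubn, which takes up the vitamin D binding protein in kidney, fell 1.57-fold (log2 -0.65, adjusted p = 0.000292). Neither of them was called under array median scaling, where the differences were 1.01 for Ncoa2 and -0.12 for Cubn. The main DNA partner Rxra read -2.40, -2.35 and -2.50 in vehicle and -1.61, -2.02 and -2.13 at 10 nM, which missed the threshold (log2 0.49, adjusted p = 0.0514). Cyp27b1, which makes the hormone, differed by 0.13 (adjusted p = 0.725) with overlapping groups.

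Classical targets of the receptor divided. Of 18 measured, 7 were higher (38.9%) and 3 lower (16.7%, near the 14.7% of all genes). The median was 0.10, and -0.36 within slide 2. S100g, the calcium binding protein calbindin D9k of gut and kidney, had -0.44, -0.49 and -0.50 at 10 nM and -9.41 and -8.49 on vehicle replicates 1 and 2, where it was not well above background. It had no value on vehicle replicate 3. For such a probe the change is given as a bound. The mean of the bright group over its replicates was set against the mean of a limit for each dim array, which is the dim probe's signal or, if that is larger, the smallest signal that any probe well above background had there. S100g was at least 74.9-fold higher (adjusted p = 1.27e-06), and another of its probes had a fitted difference of 7.35 against 8.47. Thbd, the endothelial anticoagulant receptor thrombomodulin, went from -2.40, -2.49 and -2.55 to 1.76, 1.73 and 1.84. No array of one group came near the other, and the rise was 19.2-fold (log2 4.26, SE 0.07, adjusted p = 6.13e-08). The plasma membrane calcium pump Atp2b1 rose 2.06-fold (log2 1.04, adjusted p = 3.73e-05) and the matrix phosphoprotein Spp1 1.65-fold (log2 0.72, adjusted p = 4.62e-05). Bone and kidney targets with values but no call included Fgf23 (log2 -0.38), Trpv6 (log2 -0.01) and Bglap (log2 0.04).

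Receptor binding sites in promoters were looked for as a DR3 element, a pair of half-sites, each of them AGGTCA with a variant AGTTCA, or else GGGTCA with a variant GGTTCA, in the same direction with 3 bases between, on both strands. The windows were 250 bases before to 50 after each start in RefSeq promoter entries of GRCm38.p6. The element was in 12 of 27025 genes (0.04%) and in 4 of the 13361 tested genes with a window. Among genes higher at 10 nM it was in 1, Itih3, which encodes a plasma protein that binds hyaluronan. Itih3 is described for that match and was chosen after its values were seen. Its relative signal was -5.98, -7.32 and -4.96 in vehicle, where 2 of 3 arrays were well above background, and -2.10, -2.05 and -1.97 at 10 nM. The vehicle arrays were scattered and all of them lay below the 10 nM arrays, which rose 16.5-fold (log2 4.05, SE 0.51, adjusted p = 0.000677). The 250 bases before the Itih3 start, chr14:30923588-30923837 on the minus strand, are shown to place the element, which the capitals mark from 223 to 209 bases before the start.
Itih3: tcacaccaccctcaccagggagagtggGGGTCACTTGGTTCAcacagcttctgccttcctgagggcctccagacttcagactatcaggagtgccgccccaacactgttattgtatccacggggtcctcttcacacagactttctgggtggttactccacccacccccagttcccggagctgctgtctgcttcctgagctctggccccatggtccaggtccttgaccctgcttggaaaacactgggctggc
A match of letters is a description, and most known receptor sites lie outside windows of this size.

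Cell cycle genes fell together. Of 39 measured genes of mitosis and the cell cycle, 38 were lower and 0 were higher, beside the 14.7% of all genes that were lower, and the median difference was -4.52 against -0.11 over all genes. The median stayed between -4.60 and -3.79 under the other background correction, scalings and slide settings. Mki67, the proliferation antigen Ki-67, read 3.13, 3.24 and 3.08 in vehicle and -2.31, -2.27 and -2.38 at 10 nM. Each group was tight and the gap between them wide. It fell 44.4-fold (log2 -5.47, SE 0.09, adjusted p = 6.13e-08), and its probe is at chr7:142881591-142881650 (mm9). Top2a, the topoisomerase that untangles replicated chromosomes, went from 0.53, 0.73 and 0.45 to -4.71, -4.78 and -4.80. That is 40.3-fold lower (log2 -5.33, adjusted p = 7.62e-08), again with no overlap. Ccna2, the cyclin of S phase and mitotic entry, fell 26.1-fold (log2 -4.70, adjusted p = 6.13e-08).

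Genes of chromosome segregation were among them. The spindle checkpoint kinases Bub1 and Bub1b fell 45.4-fold and 40.1-fold, with differences of -5.50 and -5.33. The kinetochore subunits Ndc80 and Nuf2 fell 41.9-fold and 39.2-fold (log2 -5.29 for Nuf2, and -3.09 and -4.86 by its other probes). Ndc80 had a larger SE of 0.63, whose spread is taken over all 9 arrays. Its SD was 1.39 at 1 nM, where the arrays read -2.74, -5.19 and -5.11. In vehicle the SD was 0.455, with values from -1.005 to -0.13, and at 10 nM it was 0.258. The motors of cytokinesis Kif20a and Kif23 fell 17.9-fold and 36.3-fold (log2 -5.18 for Kif23, and -3.03 by another probe). Birc5, the survivin subunit of the chromosomal passenger complex, fell 32.4-fold. Kif2c, a microtubule depolymerase, was not well above background on any 10 nM array and was at least 30.6-fold lower. Outside the list, Depdc1a was at least 35.8-fold lower in the same way, and the mitotic kinase Melk fell 37.3-fold. Cdk2, the exception, differed by -0.32 (adjusted p = 0.0602) and was picked out after its value was seen. Ccnd1, the G1 cyclin, fell 34.0-fold (log2 -5.09) and was likewise picked out afterwards.

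Genes that copy DNA fell less steeply. Of 35 measured replication genes 29 were lower and 1 higher, with a median of -1.34, and 13 were lower under array median scaling and 26 with that scaling and without vehicle replicate 3. Mcm5, a subunit of the replicative helicase, went from 0.91, 0.84 and 1.01 to -2.70, -2.72 and -2.69. It fell 12.3-fold (log2 -3.62, SE 0.07, adjusted p = 6.78e-08) without overlap. Its partner Mcm3 fell 4.16-fold (log2 -2.06) and Uhrf1, which guides maintenance methylation, 20.5-fold (log2 -4.36; -2.74 by another probe). The thymidine kinase Tk1 fell 34.9-fold by its representative probe (log2 -5.13), and its other kept probes read -2.90 and -0.80, the latter not called (adjusted p = 0.45). Of 25 measured repair and checkpoint genes 19 were lower and 0 higher, with a median of -2.27 that was -1.91 without vehicle replicate 3. The Fanconi anaemia proteins Fanci and Fanca fell 22.7-fold and 8.86-fold, with Fanci well above background on 2 of 3 10 nM arrays, and the exonuclease Exo1 17.9-fold. The DNA glycosylase Neil3 was not well above background at 10 nM and was at least 37.8-fold lower. E2f7, a repressor of the E2F family, fell 47.6-fold by its representative probe, and another probe read -0.31 without a call (adjusted p = 0.528).

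Inhibitors of the cycle moved in both directions. Of 18 measured CDK inhibitors and p53 targets, 5 were higher (27.8%) and 4 lower (22.2%), beside 15.4% and 14.7% of all genes. The median was 0.06. Cdkn1a, the p21 inhibitor and a marker of cycle exit in myoblasts, read 5.01, 5.11 and 4.92 in vehicle and 5.18, 5.05 and 5.03 at 10 nM. The groups overlapped (log2 0.07, adjusted p = 0.551). Cdkn1c, the p57 inhibitor, fell 6.63-fold (log2 -2.73, adjusted p = 8.9e-06) and the pocket protein Rbl1 3.97-fold (log2 -1.99). Cdkn2d fell 2.57-fold (log2 -1.36) and was not called under array median scaling (log2 -0.83).

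Promoters of these genes were searched for known cell cycle elements. The CHR element TTTGAA was in the window of 21 of the 32 cell cycle genes that had one (65.62%), against 15.54% of all tested genes with a window. The CCAAT box was in 22 of those 32 (68.75%), against 42.39%. For E2F sites, searched as TTTCGCGC, TTTGGCGC, TTTCCCGC or TTTGGCGG, the share was 13 of 28 replication genes (46.43%) against 4.15%. All letters were searched on both strands, and none of these strings contains another. These shares describe lists of known genes, not all genes that changed. Of genes called lower at 10 nM with a window, 17.16% held the CHR, 46.18% the CCAAT box and 5.81% an E2F site. Among those at least 4-fold lower the shares were 28.12%, 53.32% and 6.9%. Below are the 150 bases before the start for 3 genes that fell, chr7:135716380-135716529 (minus strand) for Mki67, chr11:99024190-99024339 (minus strand) for Top2a and chr3:159495283-159495432 (plus strand) for Depdc1a. They are shown because the CHR and the CCAAT box, in capitals on either strand, stand at different distances in each. The CHR ends 111 and 93 bases before the start in Mki67, 18 bases in Top2a and 11 bases in Depdc1a.
Mki67: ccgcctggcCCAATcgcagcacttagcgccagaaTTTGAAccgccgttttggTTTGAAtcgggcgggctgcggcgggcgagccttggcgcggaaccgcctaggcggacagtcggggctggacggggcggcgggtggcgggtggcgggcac
Top2a: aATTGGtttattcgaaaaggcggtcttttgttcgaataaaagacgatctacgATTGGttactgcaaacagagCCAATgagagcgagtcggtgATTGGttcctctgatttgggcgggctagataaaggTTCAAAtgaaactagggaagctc
Depdc1a: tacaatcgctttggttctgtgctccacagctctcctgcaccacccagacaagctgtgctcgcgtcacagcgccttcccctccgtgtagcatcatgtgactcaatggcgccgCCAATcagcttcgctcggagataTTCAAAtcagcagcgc
In Top2a the box occurs 4 times, 3 of them on the opposite strand. Whether a factor bound these letters was not measured.

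**Figure D3:**
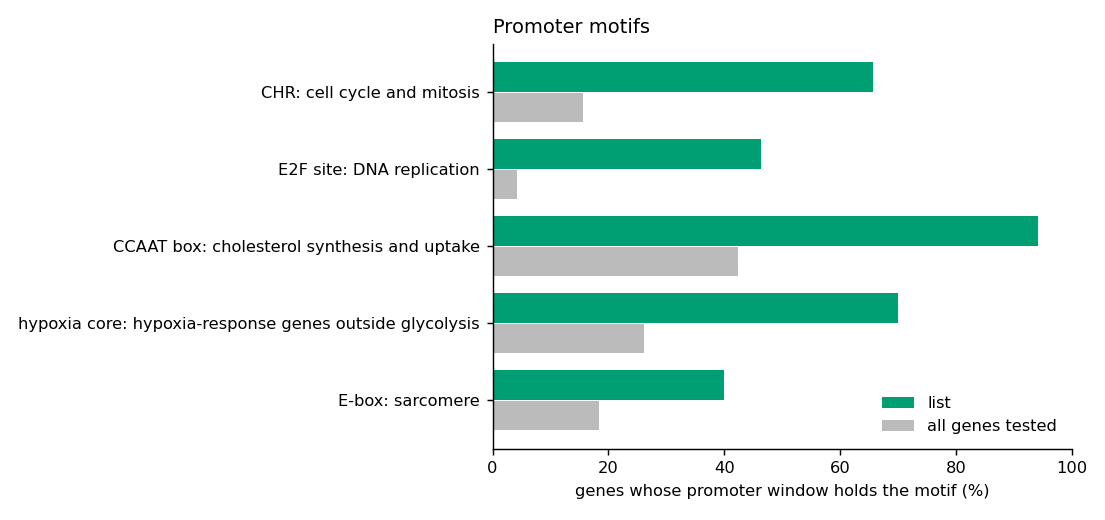
Share of genes (%) whose RefSeq promoter window holds a motif, for members of a list (green) and for all 13361 tested genes with a window (grey). The CHR was in 65.62% of cell cycle windows against 15.54%, the E2F site in 46.43% of replication windows against 4.15%, the CCAAT box in 94.12% of cholesterol windows against 42.39%, ACGTG in 70.0% of hypoxia windows against 26.2% and CAGCTG in 40.0% of sarcomere windows against 18.45%. Shares among called genes, not drawn, were nearer those of all tested genes. Of genes called lower 17.16% held the CHR, 5.81% the E2F site, 46.18% the CCAAT box and 27.29% ACGTG. Of genes called higher 19.41% held CAGCTG.

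The contractile apparatus rose modestly and broadly. Of 46 measured sarcomere genes 32 were higher, beside 15.4% of all genes, and 2 were lower, with a median difference of 0.48. Under array median scaling 16 were higher, at a median of 1.01 beside 0.40 for all genes. With that scaling and without vehicle replicate 3, 27 were higher, at a median of 0.59 beside 0.10. Within slide 1 the median was 0.46. Myh2, the fast oxidative IIa myosin heavy chain, read 0.40, 0.53 and 0.32 in vehicle and 2.59, 2.60 and 2.66 at 10 nM. All 10 nM arrays were higher, by 4.59-fold (log2 2.20, SE 0.08, adjusted p = 9.91e-07). The slow heavy chain Myh7 went from 2.95, 2.98 and 2.95 to 4.39, 4.33 and 4.43, a rise of 2.68-fold (log2 1.42, adjusted p = 1.76e-06), and the slow light chain Myl2 rose 2.98-fold (log2 1.58). The fast heavy chain Myh1 rose 1.87-fold (log2 0.90). Skeletal actin, Acta1, picked out afterwards, read 6.35, 6.53 and 6.23 and 6.66, 6.60 and 6.57 and was not called (adjusted p = 0.117). The E-box CAGCTG, a letter match for myogenic helix-loop-helix factors, was in 14 of 35 sarcomere windows (40.0%), against 18.45% of all tested genes with a window. Of genes called higher with a window 19.41% held it, and of those at least 4-fold higher 18.71%.

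Genes that couple excitation to contraction followed, with 14 of 27 higher, 1 lower and a median of 0.47. Cacna2d1, the accessory subunit of the voltage-gated calcium channel, went from 2.21, 2.21 and 2.00 to 4.09, 3.94 and 3.90. The rise was 3.58-fold (log2 1.84, adjusted p = 3.45e-06). The slow-twitch calcium pump Atp2a2 rose 2.30-fold (log2 1.20), triadin, Trdn, 2.27-fold (log2 1.18), and the store sensor Stim1 1.70-fold (log2 0.77). Of 15 genes of the neuromuscular junction 2 were higher and 2 lower, 13.3% each way, which is near the 15.4% and 14.7% of all genes. The receptor clustering protein Rapsn rose 1.51-fold (log2 0.59), and the adult receptor subunit Chrne fell 2.07-fold (log2 -1.05), a difference that turned to 0.23 with quantile normalization.

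Regulators of myogenesis moved in both directions, 11 of 28 higher (39.3%) and 6 lower (21.4%). Myod1 and Myog, the commitment and differentiation factors, were picked out after their values were seen. Myod1 went from 1.45, 1.79 and 1.48 to 2.51, 2.35 and 2.53, a rise of 1.86-fold (log2 0.89, adjusted p = 0.000689). Myog went from 4.40, 4.50 and 4.37 to 3.91, 4.03 and 4.04, a fall of 1.34-fold (log2 -0.42, adjusted p = 0.00287). In both, the groups did not overlap. Ankrd2, a titin-binding stretch sensor, rose 4.33-fold (log2 2.11), and the IGF binding proteins Igfbp5 and Igfbp4 rose 4.28-fold and 2.82-fold. Nfatc2, a calcium-dependent factor of fusion, fell 3.13-fold by its representative probe (log2 -1.65), and its other probe read -0.74 without a call (adjusted p = 0.0555).

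Markers of satellite cells and myoblasts were lower in 10 of 19 cases (52.6%) and higher in 3 (15.8%, near the 15.4% of all genes). Their median was -0.47, and 0.06 under array median scaling. Cd34, a surface marker of quiescent satellite cells, went from 3.13, 3.37 and 2.93 to -0.77, -0.82 and -0.94. It fell 15.8-fold (log2 -3.99, adjusted p = 3.8e-07), and another probe read -3.29. The myoblast repressor Msc fell 6.59-fold (log2 -2.72). The inhibitors of differentiation Id2 and Id3 diverged: Id2 fell 3.19-fold (log2 -1.67; -1.15 and not called under array median scaling) and Id3 rose 4.59-fold (log2 2.20). The summed signal of the list, as a multiple of the array's 75th percentile, was 138 to 140 in vehicle and 120 to 129 at 10 nM.

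Mitochondrial genes rose by small amounts. Of 54 measured subunits of oxidative phosphorylation 41 were higher and 0 lower, with a median of 0.42, and of 18 genes of the tricarboxylic acid cycle 14 were higher and 0 lower, with a median of 0.45. At an unadjusted p under 0.05 in limma, 0 of either list were lower. Under array median scaling 8 and 2 were higher, at medians of 0.95 and 0.98 beside 0.40 for all genes. With that scaling and without vehicle replicate 3 the counts were 34 and 12. Within slide 1 the medians were 0.42 and 0.36. Cox7a1, the muscle isoform of a cytochrome oxidase subunit, stood above the rest. It went from 0.64, 1.104 and 0.52 to 3.01, 2.89 and 2.88, 4.50-fold higher (log2 2.17, SE 0.15, adjusted p = 3.12e-05). The muscle isoform Cox8b rose 1.93-fold (log2 0.94), the cytochrome oxidase subunit Ndufa4 1.60-fold (log2 0.68) and the ATP synthase subunit Atp5l 1.59-fold (log2 0.67). In the cycle, isocitrate dehydrogenase subunit Idh3b rose 1.68-fold (log2 0.75) and the pyruvate dehydrogenase subunit Dlat 1.59-fold (log2 0.67).

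Fatty acid oxidation rose in 19 of 34 genes and fell in 2. Fabp3, the muscle fatty acid binding protein, went from 2.79, 2.71 and 2.82 to 4.27, 4.29 and 4.12, a rise of 2.74-fold (log2 1.45, adjusted p = 7.65e-06). The electron transfer flavoprotein Etfa rose 2.05-fold (log2 1.03), malonyl-CoA decarboxylase, Mlycd, 2.03-fold (log2 1.02) and the transporter Slc27a1 1.98-fold (log2 0.99).

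Of the glycolysis list 14 of 28 were lower and 6 higher, with a median of -0.39 that was 0.14 under array median scaling, where 4 were lower. The lactate exporter Slc16a3 went from 2.92, 2.81 and 2.97 to 0.19, 0.42 and 0.11. It fell 6.31-fold (log2 -2.66, adjusted p = 2.07e-06) without overlap. Aldoc and Pfkp, an aldolase and a phosphofructokinase that are not the main muscle isoforms, fell 3.77-fold and 2.81-fold, and Pfkp read -0.73 by another probe and was not called under array median scaling (log2 -0.96, against -1.49). Ldhb, the lactate dehydrogenase subunit of oxidative tissue, rose: 0.01, -0.11 and -0.05 in vehicle and 2.07, 2.06 and 2.12 at 10 nM. The arrays of each group lay close together, and the rise was 4.38-fold (log2 2.13, SE 0.06, adjusted p = 2.88e-07).

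Targets of hypoxia-inducible factors outside glycolysis were lower in 17 of 27 cases and higher in 3, with a median of -0.73, or -0.20 under array median scaling. There 4 were lower, and without vehicle replicate 3 under that scaling 17 were. Car9, a membrane carbonic anhydrase used as a marker of hypoxia, had the largest fall of any gene above background in both groups. Its relative signal was 1.19, 1.70 and 1.38 in vehicle and -5.02, -5.38 and -5.98 at 10 nM. The groups lay far apart, and the fall was 118-fold (log2 -6.88, SE 0.24, adjusted p = 7.03e-07), with the probe at chr4:43526518-43526577 (mm9). The related Car12 was not well above background on any 10 nM array and was at least 68.8-fold lower. Ndrg1 fell 5.90-fold (log2 -2.56), the collagen prolyl hydroxylase P4ha2 2.87-fold (log2 -1.52) and Ankrd37 2.65-fold (log2 -1.40). P4ha2 and Ankrd37 were not called under array median scaling, at -0.99 and -0.88. Vegfa, an angiogenic factor of the same list picked out afterwards, rose 2.99-fold: 2.77, 2.77 and 2.73 in vehicle and 4.23, 4.42 and 4.36 at 10 nM (adjusted p = 3.91e-06). Hif1a itself differed by -0.12 (adjusted p = 0.498) with overlapping groups.

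The core letters of the hypoxia response element, ACGTG, were in 14 of 20 windows of that list (70.0%), against 26.2% of all tested genes with a window. Of genes called lower with a window 27.29% held them, and of those at least 4-fold lower 22.81%. The 150 bases before the start are shown for the gene with the largest fall, Car9 (chr4:43506876-43507025, plus strand), and for P4ha2 (chr11:54100774-54100923, plus strand), with the core in capitals. It stands 18 to 14 bases before the start in Car9, on the opposite strand, and 78 to 74 bases in P4ha2.
Car9: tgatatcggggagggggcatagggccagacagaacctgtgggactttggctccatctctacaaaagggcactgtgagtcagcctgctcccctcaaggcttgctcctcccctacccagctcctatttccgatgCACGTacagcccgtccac
P4ha2: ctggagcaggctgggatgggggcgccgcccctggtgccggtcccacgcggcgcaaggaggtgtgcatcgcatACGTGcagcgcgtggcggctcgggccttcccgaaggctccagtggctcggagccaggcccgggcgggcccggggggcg

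Cholesterol synthesis and uptake fell as a group, with 20 of 25 genes lower and 1 higher. The median was -0.93, or -0.40 under array median scaling, where 5 were lower, and with that scaling and without vehicle replicate 3 the count was 16. Cyp51, the lanosterol demethylase, went from -0.11, -0.37 and -0.28 to -1.48, -1.503 and -1.43. The groups did not overlap, and the fall was 2.33-fold (log2 -1.22, SE 0.08, adjusted p = 1.72e-05). Fdps, the farnesyl diphosphate synthase, fell 1.98-fold (log2 -0.99). Neither Cyp51 nor Fdps was called under array median scaling, at -0.69 and -0.46. The CCAAT box, which binds a cofactor of sterol regulation, was in 16 of 17 windows of the list (94.12%), against 42.39%. Of genes called lower with a window 46.18% held it. Cyp51 (chr5:4104698-4104847, minus strand) is shown with the box in capitals 29 to 25 bases before the start.
Cyp51: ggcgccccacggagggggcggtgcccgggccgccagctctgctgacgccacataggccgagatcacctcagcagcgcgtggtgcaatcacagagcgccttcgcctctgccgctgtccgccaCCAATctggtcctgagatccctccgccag

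Genes of fatty acid synthesis and fat storage divided, with 13 of 31 lower (41.9%) and 8 higher (25.8%). Their median was -0.41, and 0.11 under array median scaling and 0.06 in the submitters' deposited table. The elongase Elovl6 fell 4.06-fold (log2 -2.02), and the lipolysis inhibitor G0s2 6.52-fold (log2 -2.70, adjusted p = 4.79e-07). Dgat1, which makes triglyceride, rose from -0.12, 0.14 and 0.07 to 3.52, 3.49 and 3.65. No array came near the other group and the rise was 11.47-fold (log2 3.52, SE 0.09, adjusted p = 1.61e-07). The lipid droplet coat protein Plin2 rose 2.63-fold (log2 1.40).

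Adipocyte markers rose in 7 of 16 measured genes and fell in 0, with a median of 0.39 that was -0.06 within slide 2. A gene counts as measured if well above background on all 3 arrays of any group, so some entered through treated arrays alone. Of the 16, 11 were so on the vehicle arrays and 14 at 10 nM, and the share of rises depends in part on that filter. Cfd, Ucp1, Prdm16 and Retnla did not pass it. Adipoq, adiponectin, had 0.99, 1.03 and 1.13 at 10 nM, and -8.93 and -8.13 on vehicle replicates 1 and 2, where it was not well above background, while vehicle replicate 3 read -2.80. Without that array it was at least 216-fold higher, and with it the fitted difference was 7.67 (SE 1.41, adjusted p = 0.00475). Fabp4, the adipocyte fatty acid binding protein, showed the same pattern of arrays, with -3.82 on vehicle replicate 3, and was at least 176-fold higher without it (adjusted p = 0.00151 with all arrays). The factors Cebpa and Cebpd rose 5.94-fold and 3.63-fold. Pparg, the master regulator of fat cells, had -0.91, -1.06 and -0.10 in vehicle and -0.43, -0.40 and -0.34 at 10 nM and was not called (adjusted p = 0.343), and without vehicle replicate 3 it was (log2 0.59, adjusted p = 0.0011). The droplet genes Plin1 and Cidec differed by -1.45 and -0.44 and were not called. The summed signal of the list was 6.86 to 9.03 in vehicle and 116 to 124 at 10 nM. Most of the 10 nM sum, but not of the vehicle sum, came from Rarres2, whose part in the other results was not tested.

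Insulin and IGF signalling genes were higher in 16 of 38 cases (42.1%) and lower in 8 (21.1%), beside 15.4% and 14.7% of all genes. Grb14, an inhibitor of the insulin receptor, went from -2.15, -2.29 and -2.08 to 2.36, 2.39 and 2.34. It rose 23.2-fold (log2 4.54, SE 0.09, adjusted p = 6.7e-08), with no array near the other group. Tbc1d4, which releases glucose transporters on insulin signals, rose 4.92-fold by its representative probe (log2 2.30), and another probe read 1.13 without a call (adjusted p = 0.316). Igfbp2 fell 7.37-fold (log2 -2.88). Genes of muscle atrophy and autophagy were higher in 15 of 24 cases and lower in 1. The muscle ubiquitin ligase Trim63 rose 2.87-fold (log2 1.52) and the autophagosome protein Map1lc3b 2.08-fold (log2 1.06). Klf15, a metabolic factor of the same list, was not well above background in vehicle and was at least 4.49-fold higher.

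**Figure D4:**
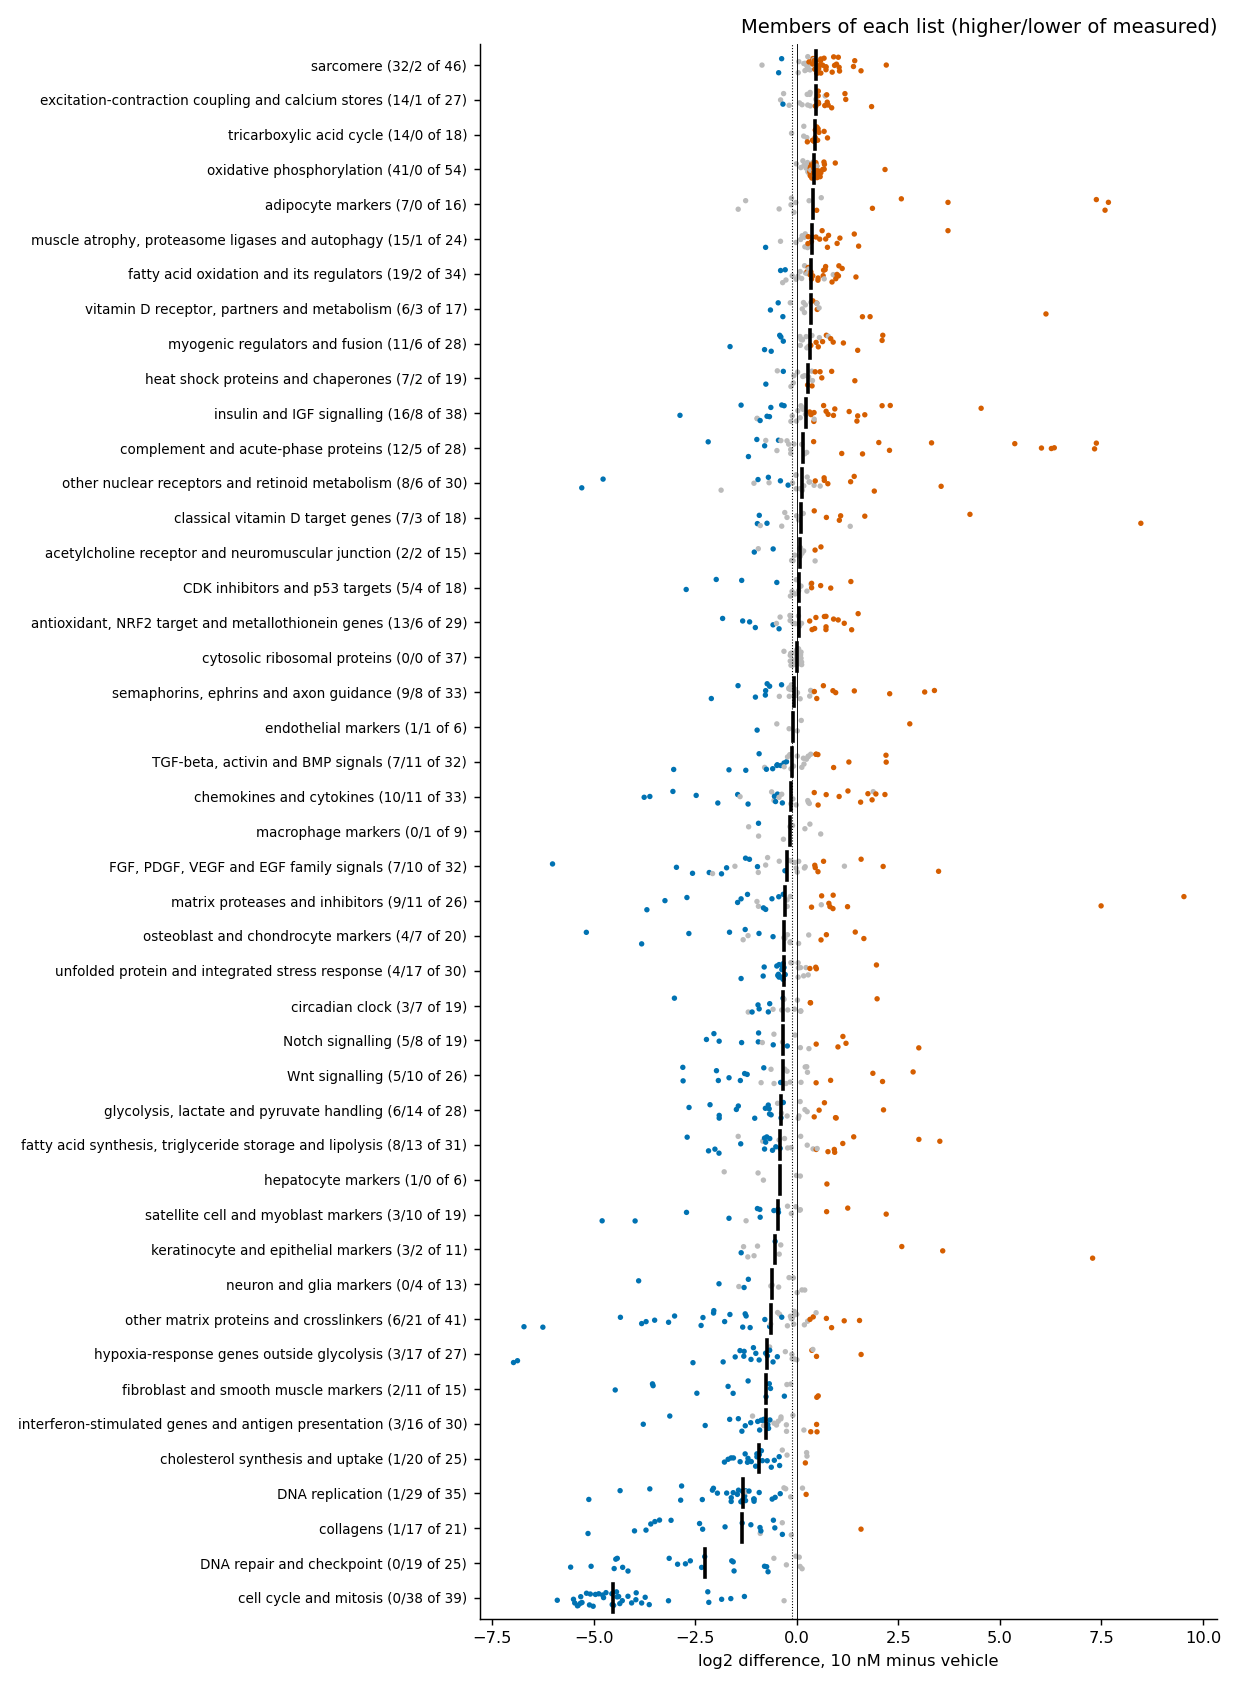
Log2 difference (10 nM minus vehicle) of each measured member of 45 gene lists, ordered by the list's median (black bar), with members called higher in orange, called lower in blue and not called in grey; the dotted line is the median of all genes tested, -0.11. Cell cycle genes lie at the bottom with a median of -4.52, while sarcomere, calcium handling and mitochondrial lists lie above 0.4. Under array median scaling, where the median of all genes was 0.40, many negative list medians turned positive. Glycolysis, fatty acid synthesis, satellite markers, Notch and Wnt signalling were among them.

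Collagens fell in 17 of 21 measured genes and rose in 1, with a median of -1.35, or -1.08 without vehicle replicate 3. Under array median scaling the median was -0.82 and 10 were lower. Col18a1, the basement membrane collagen that carries endostatin, went from 4.91, 4.99 and 4.92 to -0.17, -0.18 and -0.27. The spread within each group was small beside the gap, a fall of 35.4-fold (log2 -5.15, SE 0.07, adjusted p = 3.96e-08). Col6a1, a microfibril chain of the muscle matrix, fell 13.2-fold (log2 -3.72), and the fibril regulators Col5a1 and Col5a3 fell 8.58-fold and 12.1-fold. Of the main fibrillar chains, Col1a1 and Col3a1, picked out afterwards, fell 2.20-fold and 1.495-fold.

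Of the other matrix proteins and crosslinkers 21 of 41 were lower and 6 higher. Cilp, a cartilage matrix protein, had the second largest fall of any gene above background in both groups. It read 3.15, 3.77 and 2.89 in vehicle and -3.38, -3.33 and -3.65 at 10 nM. The vehicle arrays were more scattered than the 10 nM arrays and the groups lay far apart, a fall of 106-fold (log2 -6.72, SE 0.21, adjusted p = 4.51e-07). Postn, periostin, fell 20.4-fold (log2 -4.35), the matricellular proteins Tnc and Thbs2 fell 11.4-fold and 8.95-fold, and Aspn, asporin, not well above background at 10 nM, was at least 29.7-fold lower. Markers of fibroblasts and smooth muscle were lower in 11 of 15 cases and higher in 2. Under array median scaling 5 were lower and 0 higher by limma, and the median moved from -0.76 to -0.23. Their summed signal was 429 to 441 times the array's 75th percentile in vehicle and 199 to 201 at 10 nM, and its part in the matrix result was not tested. Among them the smooth muscle protein Cnn1 fell 11.8-fold, Tagln 3.24-fold, Vim 2.30-fold and S100a4 2.97-fold, and the last pair lost the call under array median scaling (log2 -0.68 and -1.04). Another probe of S100a4 read -2.16 against -1.57.

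Matrix proteases divided: 11 of 26 were lower and 9 higher, with a median of -0.29 that was 0.24 under array median scaling. The collagenase Mmp13 had 2.08, 2.06 and 2.09 at 10 nM and -9.38 and -8.55 on vehicle replicates 1 and 2, where it was not well above background. Vehicle replicate 3 read -4.43 and was well above background. Without that array Mmp13 was at least 439-fold higher, and with all arrays the fitted difference was 9.53 (SE 1.12, adjusted p = 0.000483). The stromelysin Mmp3 had the same pattern, with -4.67 on vehicle replicate 3, and was at least 116-fold higher without it. Among lower members were the urokinase receptor Plaur, which fell 9.52-fold (log2 -3.25), and the plasminogen activator Plat, which fell 2.60-fold (log2 -1.38; -0.85 and not called under array median scaling).

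Complement and acute-phase genes held several of the largest rises, with 12 of 28 measured genes higher (42.9%) and 5 lower (17.9%). Their median was 0.15, and -0.19 within slide 2. C3, the central complement component, went from -3.27, -3.65 and -3.12 to 3.94, 3.95 and 4.06. The groups lay far apart, a rise of 161-fold (log2 7.33, SE 0.14, adjusted p = 6.23e-08), with the probe at chr17:57343416-57343475 (mm9). Another probe of C3, at chr17:57343678-57343737, read a difference of 3.55 (adjusted p = 8.79e-08). Cfb, factor B of the alternative pathway, went from -4.21, -4.31 and -4.20 to 1.99, 1.90 and 2.19, a rise of 77.0-fold (log2 6.27, adjusted p = 6.13e-08). Rarres2, the chemokine-like adipokine chemerin, read -1.099, -1.28 and -0.03 in vehicle and 6.62, 6.51 and 6.57 at 10 nM. Vehicle replicate 3 was the highest of its group and still far below the 10 nM arrays. The rise was 166-fold (log2 7.37, SE 0.29, adjusted p = 1.41e-06), and 217-fold without that array.

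The haem scavenger haptoglobin, Hp, had -4.33 and -4.50 on vehicle replicates 1 and 2, no value on vehicle replicate 3, and 1.84, 1.94 and 2.00 at 10 nM. It rose 80.9-fold over those arrays (log2 6.34, adjusted p = 6.78e-08). The orosomucoids Orm2 and Orm3 rose 65.0-fold and 41.2-fold, and Orm3 rose 72.0-fold without vehicle replicate 3, where it read -2.88 against -5.46 and -5.13. These genes are close relatives and their probes may share signal. Of 9 measured markers of macrophages, which also make complement, 0 were higher and 1 lower (11.1%) by limma, and 0 and 2 at an unadjusted p under 0.05. With 9 genes such counts cannot be told from the 15.4% and 14.7% of all genes. Without vehicle replicate 3, 2 were higher and 1 lower, under array median scaling 2 and 0, and with both changes 3 and 1. Their median of -0.17 was 0.36 under array median scaling and 0.01 with quantile normalization. Cd14 fell 1.93-fold (log2 -0.95; -0.42 and not called under array median scaling). Their summed signal was 21.9 to 25.8 in vehicle and 16.6 to 22 at 10 nM. Hepatocytes are the usual makers of acute-phase proteins. Of 6 measured hepatocyte markers 1 was called higher (16.7%, near the 15.4% of all genes), Ahsg, at log2 0.74 (adjusted p = 0.0212). Ahsg had no value on vehicle replicate 3, was well above background on 1 of the other vehicle arrays, and lost the call in 7 of 24 settings, array median scaling among them. The median of the hepatocyte list was -0.42, and 0.11 under array median scaling, 0.41 with quantile normalization and 0.06 in the submitters' table. Their summed signal was 0.391 to 0.562 in vehicle and 0.328 to 0.467 at 10 nM.

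**Figure D5:**
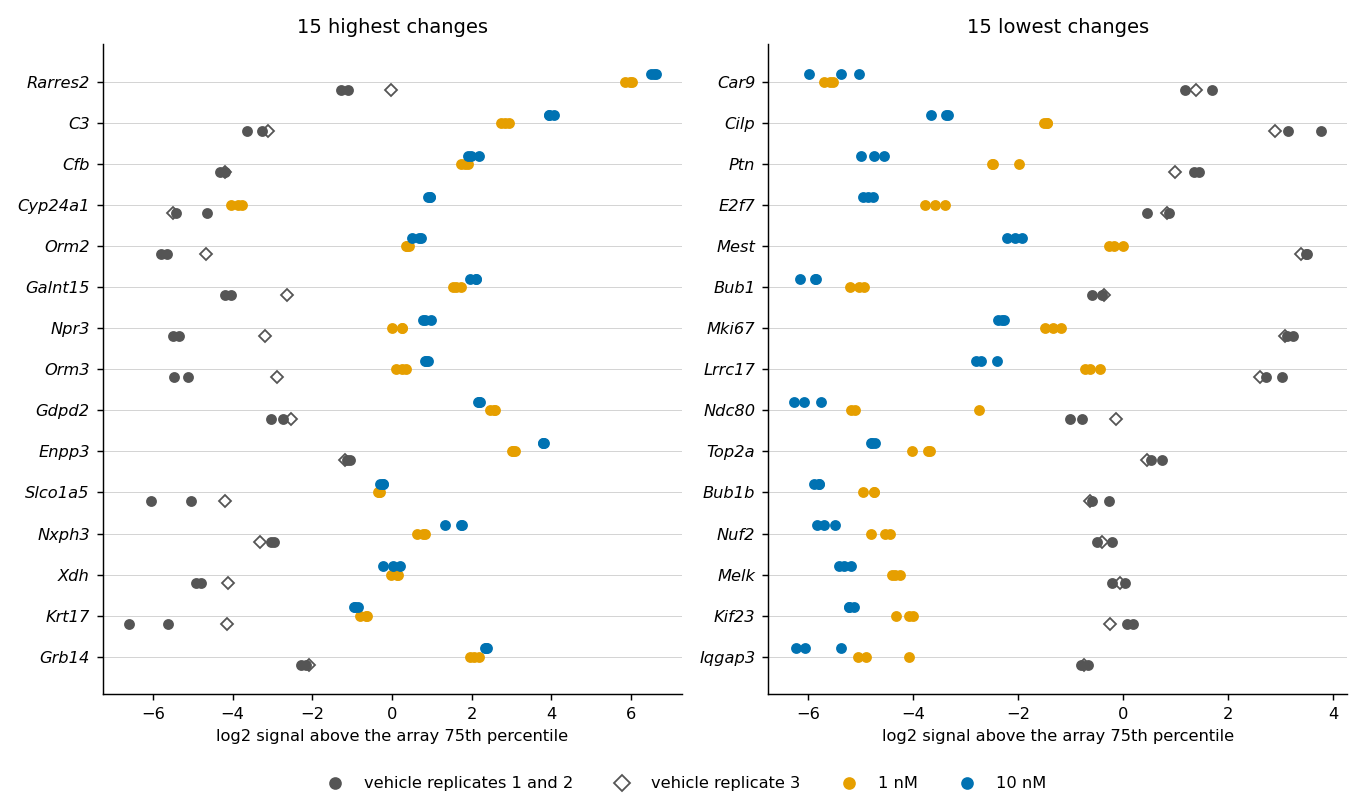
Relative signal (log2 units above the array 75th percentile) of the 15 genes with the highest and the 15 with the lowest change among genes above background in both groups, by array: vehicle (grey, replicate 3 as an open diamond), 1 nM (orange) and 10 nM (blue). The genes were chosen among called genes whose vehicle and 10 nM arrays did not overlap, so that separation was set by the choice. Vehicle replicate 3 stands toward 10 nM for Orm3 (-2.88 against -5.46 and -5.13), and the 1 nM arrays of Cyp24a1 lie nearer vehicle than 10 nM.

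Chemokines and cytokines were higher in 10 of 33 cases (30.3%) and lower in 11 (33.3%). Under array median scaling 8 were higher and 5 lower, and 5 were lower also with quantile normalization and in the submitters' table. The median of -0.15 was then 0.38, 0.02 and 0.01. Il6 went from -1.26, -1.497 and -1.33 to -5.23, -4.85 and -5.30. It fell 13.6-fold (log2 -3.76, SE 0.13, adjusted p = 6.96e-07), with no overlap. Cxcl14 fell 12.3-fold (log2 -3.62), while Cxcl12, which attracts precursor cells, rose 4.49-fold (log2 2.17) and the macrophage growth factor Il34 rose 3.61-fold (log2 1.85).

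Of TGF-beta, activin and BMP signals 7 of 32 were higher (21.9%) and 11 lower (34.4%), beside 15.4% and 14.7% of all genes. The median of -0.12 was 0.41 under array median scaling, where 4 were higher and 1 lower, 0.04 with quantile normalization and 0.02 in the submitters' table. The activin subunits went opposite ways: Inhba went from 1.93, 1.87 and 1.81 to -1.17, -1.20 and -1.12, a fall of 8.20-fold (log2 -3.04, adjusted p = 6.78e-08), and Inhbb from 1.87, 1.84 and 1.76 to 4.005, 4.004 and 4.03, a rise of 4.57-fold (log2 2.19, adjusted p = 1.96e-07). In Notch signalling 5 of 19 genes were higher (26.3%) and 8 lower (42.1%), with a median of -0.35 that was 0.17 under array median scaling. The ligand Jag1 fell 3.77-fold (log2 -1.92), and the glycosyltransferases that tune the receptor diverged. Mfng rose 8.01-fold on the arrays with a value, vehicle replicate 3 having none (log2 3.00), and another Mfng probe, well above background on all 9 arrays, read 4.38 (adjusted p = 0.00216). Lfng fell 4.13-fold (log2 -2.04; -0.74 at the weakest setting, where it was not called). In Wnt signalling 5 of 26 were higher (19.2%) and 10 lower (38.5%). The median of -0.35 was 0.13 with quantile normalization, 0.12 in the submitters' table and 0.18 under array median scaling. The stem cell receptor Lgr5 fell 6.98-fold (log2 -2.80), and the secreted modulators Sfrp2 and Sfrp4 went opposite ways, at -2.81 and 2.86. Of FGF, PDGF, VEGF and EGF family signals 7 of 32 were higher (21.9%) and 10 lower (31.2%). The median of -0.25 was 0.27 under array median scaling, where 6 were higher and 6 lower. Among them Gdnf, a trophic factor for motor neurons, rose from -0.32, -0.66 and -0.23 to 3.07, 3.08 and 3.11, 11.2-fold (log2 3.49, adjusted p = 4.95e-07). Ptn, pleiotrophin, fell 64.9-fold (log2 -6.02) and the receptor Fgfr4 7.82-fold (log2 -2.97; -1.95 by another probe). Of guidance genes 9 of 33 were higher (27.3%) and 8 lower (24.2%). The median of -0.07 was 0.46 under array median scaling, where 6 were higher and 1 lower, 0.15 with quantile normalization and 0.14 in the submitters' table. Among the higher ones the repellent Sema3f rose 8.85-fold (log2 3.15), its receptor Nrp2 2.66-fold (log2 1.41; 2.06 by another probe) and the ephrin receptor Epha4 10.4-fold (log2 3.39).

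Enzymes of retinoid metabolism changed. Cyp26b1, which degrades retinoic acid, went from -0.36, -0.33 and -0.29 to 3.33, 3.13 and 3.22. It rose 11.7-fold (log2 3.55, SE 0.10, adjusted p = 2.05e-07). Dhrs3, which reduces retinal back to retinol, went from 1.11, 1.17 and 1.02 to 3.07, 2.91 and 3.03, a rise of 3.75-fold (log2 1.91, adjusted p = 1.83e-06). Aldh1a3, which makes retinoic acid and was well above background on 2 of 3 10 nM arrays, fell 27.4-fold (log2 -4.78, adjusted p = 1.91e-05). The whole list of other nuclear receptors and retinoid genes had 8 of 30 higher (26.7%) and 6 lower (20%), beside 15.4% and 14.7% of all genes. Cytosolic ribosomal proteins gave a reference: 0 of 37 were called in either direction by limma, with differences from -0.32 to 0.12 and a median of -0.01, which was 0.52 under array median scaling. At an unadjusted p under 0.05, 2 were lower and 0 higher, and without vehicle replicate 3, 2 were lower after adjustment.

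The 10 nM response was then set against 1 nM. Both doses share the vehicle arrays, so the difference between them was estimated from the 10 nM and 1 nM arrays, with the spread taken from all 9. In it 351 genes were higher at 10 nM (1.60%) and 486 lower (2.21%). With replicate numbers as a block, since same-numbered 1 nM and 10 nM arrays deviated together, 459 genes passed in place of 837. Without vehicle replicate 3, which enters through the spread, 1267 passed, and without 1 nM replicate 3, the array whose loss lowered the count most, 366. Of the 3393 genes higher than vehicle, 325 were higher again at 10 nM than at 1 nM and 23 went the other way, and of the 3229 lower genes the counts were 418 and 8. Within slides 1 and 2, 5 and 0 genes passed, but slide 1 holds 1 array of each dose and slide 2 holds 1 of 10 nM and 2 of 1 nM, so that these fits say little about the doses.

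Cyp24a1, Vdr and the retinoid enzymes differed between the doses. The log2 differences from vehicle at 1 nM and 10 nM were 1.29 and 6.13 for Cyp24a1, and 10 nM exceeded 1 nM by 4.84 (adjusted p = 0.000152). For Vdr they were 0.10 and 1.61, a difference between doses of 1.52 (adjusted p = 0.000152). For Cyp26b1 the 10 nM arrays exceeded the 1 nM arrays by 2.58 and for Dhrs3 by 1.75 (both adjusted p = 0.000152). Mfng, Postn and Sfrp2 also differed between the doses, by 2.55, -2.56 and -2.18. Some of the largest changes did not pass the test between doses. Car9 was -7.03 at 1 nM and -6.88 at 10 nM, a difference of 0.14 (adjusted p = 1), and Cfb 6.06 and 6.27 (difference 0.20, adjusted p = 0.461). Of the cell cycle list 18 of 39 were lower at 10 nM than at 1 nM, beside 2.21% of all genes, with a median difference between doses of -0.62. Of the sarcomere list 0 were called between the doses in either direction by limma, with 4 higher and 6 lower at an unadjusted p under 0.05, and the median was 0.04.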

How the data were processed

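Total RNA of 9 C2C12 cultures was measured on 1-colour Agilent mouse arrays, designed on the mm9 build, and the 6 arrays of vehicle and 10 nM are the subject here. The intensity values are the processed signals deposited by the authors, and the submitters' processing notes name Feature Extraction 11.5.1.1 and limma. Marks of 0 or 1 for outlier, background and saturation were used as deposited per the file headers. The authors' deposited log2 table of 30094 probes, whose steps are not given in the sources used here, served as an alternative; its values correlated at 0.9999 with normexp correction and quantile normalization of the same arrays, with medians from 9.65 to 9.72.

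Control and non-uniform spots were dropped, spots of a probe averaged, and log2 signals set relative to each array's 75th percentile. Of 39429 probes 28342 (71.9%) were well above background on all 3 arrays of a group, and of several kept probes the one of highest mean stood for the gene. A gene could thus enter a list through the arrays of 1 group alone. Probes were named through RefSeq accession (21036), symbol (2168) or the file's own name (5138). Effects were fitted with limma 3.58.1 in R 4.3.3 over all 9 arrays without a block, with Benjamini-Hochberg adjustment at 0.05, and the script was tested on simulated data. Alternatives were other background corrections, scalings, filters, probe rules, model settings, blocks, slides and arrays left out. Same-numbered 1 nM and 10 nM arrays deviated together (r = 0.488, 0.333 and 0.137), and vehicle and 10 nM arrays did not (r = -0.186, -0.193 and -0.42).

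Named genes were the 15 highest and 15 lowest changes above background in both groups, the 8 highest and 8 lowest bounds, up to 4 called genes of smallest p in each list, Cyp24a1, Vdr, the 6 highest and 6 lowest differences between doses, and the 5 highest and 5 lowest genes called without vehicle replicate 3 and not with all arrays. Rxra, Cyp27b1, Fgf23, Trpv6, Bglap, Cdk2, Ccnd1, Cdkn1a, Itih3, Acta1, Myod1, Myog, Vegfa, Hif1a, Pparg, Plin1, Cidec, Col1a1 and Col3a1 were added after their values were seen. The comparison and the 45 lists were chosen with earlier results of these data known. Exons and introns at the probe positions were not analysed here. Some genes are not reported here.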

Additional observations from a re-analysis of the deposited data

How the results depend on the processing

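Of 213 named genes 209 kept their direction in every setting run. The exceptions were Chrne, which read 0.23 with quantile normalization against -1.05, Ciart, which read 0.26 with quantile normalization and 0.02 in the deposited table against -0.96, and, within slide 2, Lcn8 at -0.80 against 2.19 and Snap91 at -0.83 against 2.10. The count of 6622 genes called at 10 nM against vehicle became 2530 under array median scaling, 2574 within slide 1, 10019 within slide 2 and 4339 at an adjusted p under 0.01, and ran from 5104 without 10 nM replicate 3 to 7155 without vehicle replicate 3. The count of 837 between the doses became 557 with quantile normalization, 58 under array median scaling, 427 in the deposited table, 535 with no filter on dim probes, 1946 with array weights, 355 with the slide as a block, 5 within slide 1, 0 within slide 2 and 370 at an adjusted p under 0.01. It ran from 366 without 1 nM replicate 3 to 1267 without vehicle replicate 3, and without each of the other arrays it lay between these, at 708 and 967 without vehicle replicates 1 and 2, 436 and 388 without 1 nM replicates 1 and 2, and 467, 436 and 420 without 10 nM replicates 1, 2 and 3. With the replicate block, which pairs same-numbered arrays, 6221 genes were called against vehicle and 459 between the doses. Against vehicle, 8557 genes were called with array weights and 4933 in the fit on the vehicle and 10 nM arrays only. Both counts lay outside the range of 5104 to 7155, which covers fits with a single array left out. Median scaling without vehicle replicate 3, which gave 5448 calls, was chosen after seeing the data. The causes of these shifts were not tested.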

Other observations

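Interferon-stimulated and antigen presentation genes were lower in 16 of 30 measured cases and higher in 3, with a median of -0.77, which was -0.29 under array median scaling. Under that scaling 4 were lower and 0 higher by limma, and within slide 1, 8 were lower. The antiviral protein Oasl2 fell 13.8-fold over the arrays with a value (adjusted p = 2.79e-06), vehicle replicate 3 having none. The factor Irf1 fell 1.96-fold (log2 -0.97) and the ubiquitin-like protein Isg15 2.20-fold (log2 -1.14), and neither was called under array median scaling. Of the unfolded protein and stress response list 17 of 30 were lower (56.7%) and 4 higher (13.3%). The median of -0.33 was 0.20 under array median scaling, where 0 were called lower by limma. The serine synthesis enzyme Phgdh fell 1.75-fold and the pseudokinase Trib3 2.60-fold, both not called under that scaling, while the lipoprotein receptor Vldlr rose 3.89-fold. Chaperones were higher in 7 of 19 cases and lower in 2: the small heat shock proteins Hspb7 and Cryab rose 2.69-fold and 1.53-fold. Antioxidant genes were higher in 13 of 29 cases (44.8%) and lower in 6 (20.7%), and glutathione transferases went opposite ways, Gstp1 up 2.84-fold and Gstm2 down 3.56-fold. Clock genes were lower in 7 of 19 cases (36.8%, beside 14.7% of all genes) and higher in 3 (15.8%, near the 15.4% of all genes). The median of -0.34 was 0.18 under array median scaling, 0.03 with quantile normalization and 0.02 in the deposited table.

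Markers of other tissues are given beside the shares of all genes, 15.4% higher and 14.7% lower. Bone and cartilage markers were lower in 7 of 20 cases (35%) and higher in 4 (20%), with a median of -0.31 that was 0.07 under array median scaling. The calcification inhibitor Mgp rose 2.71-fold, and Omd, osteomodulin, fell 14.2-fold, well above background on 2 of 3 10 nM arrays. The summed signal of that list was 42.1 to 49.5 in vehicle and 91.2 to 92.8 at 10 nM, with most of the difference from Mgp and Spp1. Of 11 keratinocyte markers 3 were higher (27.3%) and 2 lower (18.2%). Their median was -0.54, and -0.01 under array median scaling, 0.24 within slide 1 and -1.63 within slide 2. The summed signal of that list was 1.69 to 2.68 in vehicle and 5.73 to 6.56 at 10 nM. Lor, loricrin, rose 12.04-fold and Sprr1a 5.99-fold. Krt14 fell, with log2 differences from -1.63 to -0.85 across the settings, and was not called under array median scaling. Neuron and glia markers were lower in 4 of 13 cases (30.8%) and higher in 0 by limma, also at an unadjusted p under 0.05, while 2 were higher without vehicle replicate 3, with quantile normalization and within slide 1. Their median was -0.61, and 0.14 within slide 1. They had a summed signal of 17.5 to 22.6 in vehicle and 11.4 to 17.3 at 10 nM. Tubb3, a neuronal tubulin, fell 3.78-fold. Endothelial markers were higher in 1 and lower in 1 of 6 cases (16.7% each), near the shares of all genes. Their median of -0.09 was 0.28 under array median scaling, 0.21 with quantile normalization and 0.09 in the deposited table, with a summed signal of 3.98 to 6.22 and 4.87 to 6.55.

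Some genes were not called with all arrays and were called with vehicle replicate 3 left out. The examples below also passed in some settings that keep that array, array median scaling and array weights among them. Pla2r1, a phospholipase receptor, read -4.49 and -4.49 on vehicle replicates 1 and 2, -0.56 on replicate 3, and -6.19, -6.12 and -6.12 at 10 nM. Its difference was -2.96 with all arrays (adjusted p = 0.0537 in limma) and -1.65 without that array. Ppp1r3g, a glycogen targeting subunit, read -9.38 and -8.47 on vehicle replicates 1 and 2, -5.14 on replicate 3 and -4.54, -4.91 and -4.85 at 10 nM, with a difference of 2.90 (adjusted p = 0.0557) and 4.16 without that array.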
